A study of Mus musculus with 6 samples.

Results

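Integrins and laminins were followed in STHdh cells, an immortalized mouse line of striatal origin, after transfection with Foxp1. The members were every array probe whose gene symbol named an integrin alpha subunit, an integrin beta subunit or a laminin chain by its prefix, 54 of 25697 probes, for 36 of 17830 genes. Of these, 33 genes (51 probes) encode integrin subunits or laminin chains. The other 3 match by name alone: Itgb1bp1 and Itgb1bp2, which encode proteins that bind the integrin beta tail, and Itgb4bp, an older name of Eif6, a ribosome assembly factor. RNA from 3 Foxp1-transfected samples and 3 control samples was hybridised to 1 Illumina expression array each. The genotype field calls the control cells wild-type, while their titles carry the name of the plasmid pcDNA, so whether they received an empty plasmid is not known. All 6 samples came from the same cell line, and neither the clone nor any separation of cultures is labelled, so the p-values rest on array-to-array spread that could be technical.

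Integrins are cell surface receptors, each made of an alpha and a beta subunit, that hold a cell to the matrix or to another cell and link it to actin inside. Laminins are cross-shaped matrix proteins made of an alpha, a beta and a gamma chain, and they form the sheet that, with collagen IV, nidogen and perlecan, makes up a basement membrane. The alpha subunit largely sets the ligand: Itga3, Itga6 and Itga7 bind laminins, Itga5 and Itgav bind proteins with an RGD sequence such as fibronectin and vitronectin, and Itga1, Itga2, Itga10 and Itga11 bind collagens. In the developing brain, laminin receptors that pair with Itgb1 anchor the end-feet of radial glia to the basement membrane under the pia.

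The promoters of Itgb5, Lamb1 and Itga5, 3 of the members whose Foxp1 and control arrays did not overlap, are shown because Foxp1 is a DNA-binding repressor. Of these 3, Itgb5 was lower on the Foxp1 arrays, while Lamb1 and Itga5 were higher. RefSeq promoter windows on build GRCm38.p6 matched 22 of the 36 genes with 25 windows, of which the 250 bases before the start were searched. Itgb4 and Itga7, whose arrays did not overlap either, had no window and are not shown. The forkhead core TGTTTAC, sought on both strands, was in 0 of the 25 windows, beside 3.17% of all 32851 windows. GGGCGG, the GC box bound by Sp1 factors, was chosen after the sequences were seen, and stood in 8 of the 25 windows, 32.0%, beside 32.7% of all windows. Among the windows of kept members it stood in 6 of 11, 54.5%, which was not tested. The share over windows of all kept genes, the like comparison, was not computed. The 11 windows are of 10 genes, because Itga3 has more than 1 window, and each of its windows held GGGCGG. In the 3 sequences that follow, capitals mark GGGCGG or its reverse complement. No match says only that these letters are not in the window, and a match is not a binding site.
Itgb5 (chr16:33829415-33829664, plus strand): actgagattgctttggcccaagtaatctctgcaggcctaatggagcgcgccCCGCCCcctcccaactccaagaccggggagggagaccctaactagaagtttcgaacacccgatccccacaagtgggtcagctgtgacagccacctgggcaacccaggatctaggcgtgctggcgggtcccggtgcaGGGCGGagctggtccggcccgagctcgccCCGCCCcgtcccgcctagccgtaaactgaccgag
Lamb1 (chr12:31265043-31265292, plus strand): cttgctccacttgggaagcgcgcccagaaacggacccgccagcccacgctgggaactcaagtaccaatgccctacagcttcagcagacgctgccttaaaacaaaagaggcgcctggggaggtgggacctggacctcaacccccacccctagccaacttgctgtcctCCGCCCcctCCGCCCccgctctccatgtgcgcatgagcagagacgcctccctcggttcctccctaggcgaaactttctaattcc
Itga5 (chr15:103366792-103367041, minus strand): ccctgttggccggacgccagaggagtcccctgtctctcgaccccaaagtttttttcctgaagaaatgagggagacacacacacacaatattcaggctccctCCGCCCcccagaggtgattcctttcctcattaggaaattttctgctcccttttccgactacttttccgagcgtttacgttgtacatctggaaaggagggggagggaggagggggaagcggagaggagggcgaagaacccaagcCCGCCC

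The Foxp1 probe had intensities of 4967, 4979 and 5250.0 on the Foxp1 arrays, against 688, 621 and 1048 on the control arrays, a log2 difference of 2.62 ± 0.17 (standard error, SE). Each array detected between 11789 and 12342 probes (detection p under 0.05). Before normalization both replicate 3 arrays were brighter, with median intensities of 64.5 on the Foxp1 array and 77.0 on the control array, beside 29.2 to 38.3 on the other 4. Levels are therefore given after background correction and quantile normalization, on the log2 scale, and differences are log2 Foxp1 minus control. Of the neural progenitor markers, Nes, Vim, Sox2 and Dlx2 were kept for testing and none of these 4 passed. Of 10 striatal neuron markers on the array, 8 were detected on 0 arrays, among them Drd1, Tac1, Gad1 and Bcl11b, so most markers of mature striatal neurons were not detected in these cells. The exceptions were Drd2, detected on 3 Foxp1 and 2 control arrays, and Ppp1r1b, detected on 0 Foxp1 and 3 control arrays. Neither passed. Of 6 endothelial markers, 5 were detected on 0 arrays, as were 5 of 7 leukocyte markers, among them Ptprc, Aif1, Csf1r and Spi1, while the myeloid markers Cd14 and Cd68 were detected on all 6 arrays.

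The cells expressed receptors for laminin and for RGD ligands and the beta and gamma chains of laminin. A probe was kept for testing where at least 3 of the 6 arrays detected it. Of the 54 member probes 20 were kept, for 17 genes, and 19 of them were detected on all 6 arrays. The kept integrin subunits were Itga2b, Itga3, Itga5, Itga6, Itga7 and Itgav of 15 alpha genes, and Itgb1, Itgb3, Itgb4 and Itgb5 of 9 beta genes. The kept laminin chains included Lama2, Lamb1, Lamb2 and Lamc1. Itgb1bp1 and Eif6 were kept as well. A further 5 probes were detected on 1 or 2 arrays and 29 on none of the arrays.

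No member probe passed an adjusted p of 0.05 with limma: 0 of 20 rose and 0 fell, where 2.61% of all 12136 kept probes passed (1.55% higher, 1.06% lower). At an unadjusted p under 0.05 there were 4 of 20 (20.0%), beside 18.1% of all kept probes. The 3 Foxp1 arrays lay wholly above or below the 3 control arrays for 5 of 20 probes (25.0%), beside 24.7% of all, 3 of them higher (11.4% of all probes) and 2 lower (13.4%). Without Itgb1bp1 and Eif6, which match by name alone, these counts were 4 of 18 (22.2%) and 5 of 18 (27.8%). The median difference was 0.00 for members and 0.00 for all kept probes. All of these shares lie near those of the whole array. Differences ran from -0.56 for Itgb4 to 0.30 for Lamb1. The 95% interval of the difference lay within a 2-fold change either way for 19 of 20 probes, all but Itgb4, and within 1.5-fold for 16. A change of RNA per cell and a change in the share of cells that make the RNA cannot be told apart in such bulk samples.

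**Figure D1:**
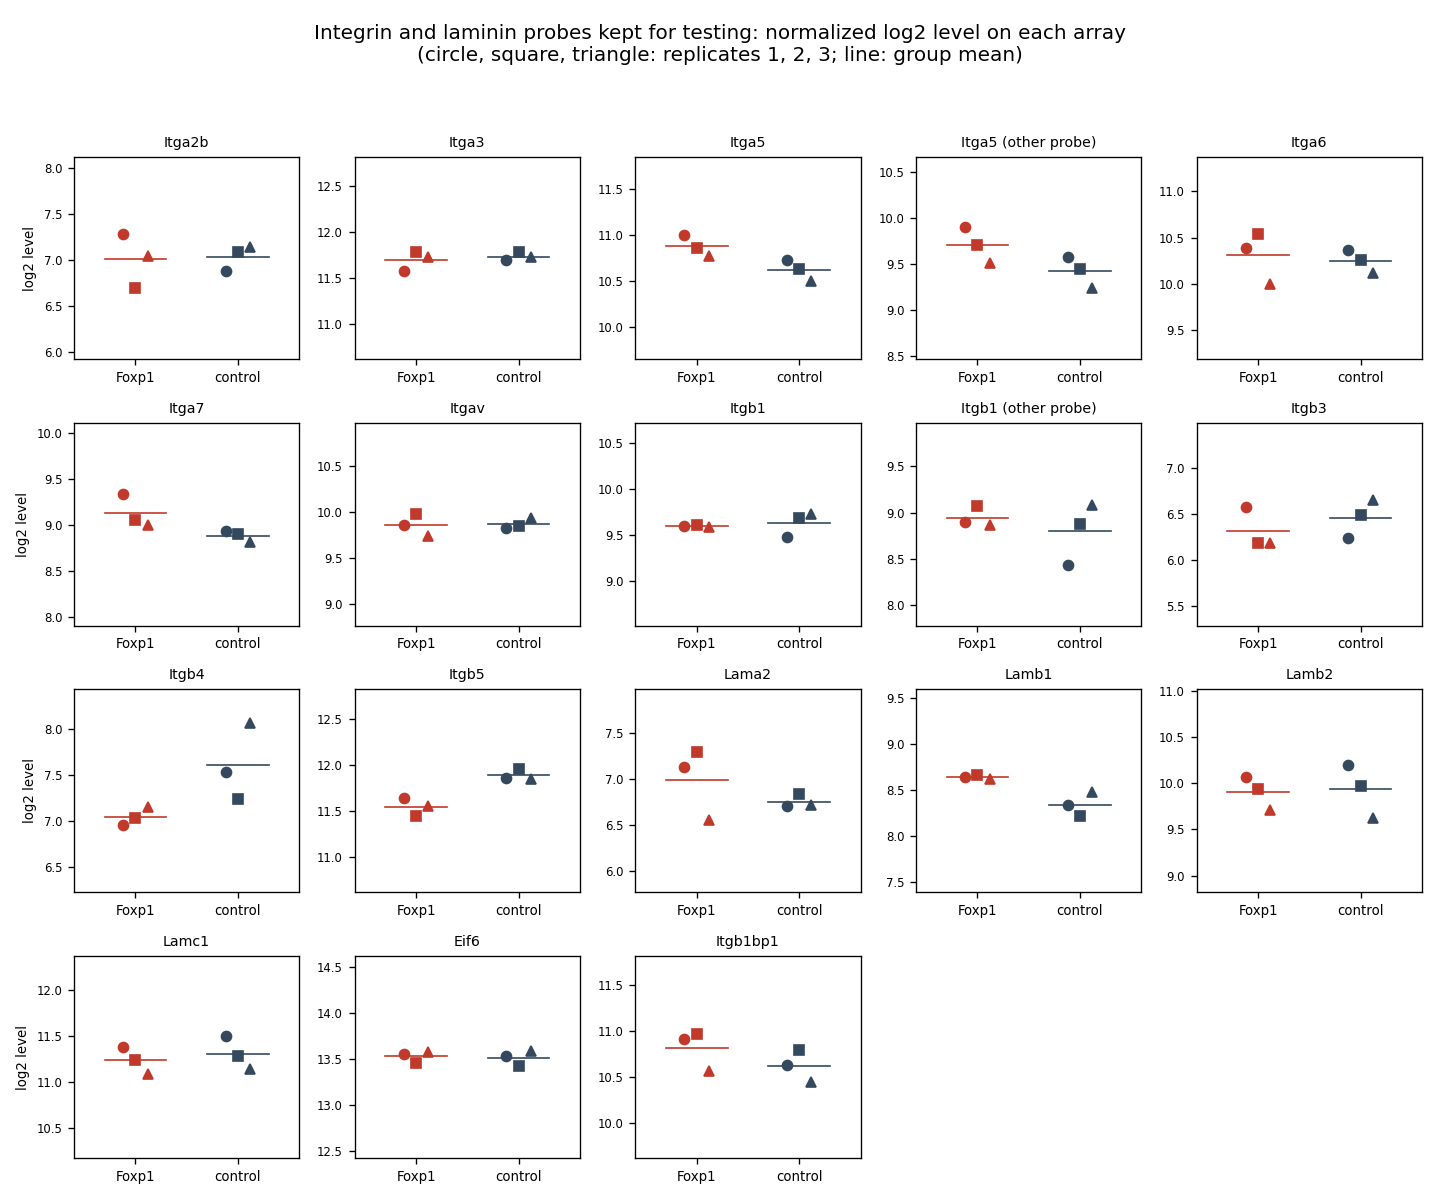
Normalized log2 level (y axis, 2.2 log2 units in each panel) of 18 kept probes on the 3 Foxp1 arrays (left) and the 3 control arrays (right), with the group mean as a line. Itgb5 and Itgb4 lie lower, and Lamb1, Itga5 and Itga7 higher, on all 3 Foxp1 arrays than on any control array, while the other probes shown overlap.

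Among the laminin chains, the ligands, Lamb1 differed most. Lamb1, the beta chain of the most widely made laminins and listed on the array as Lamb1-1, had log2 levels of 8.64, 8.66 and 8.62 on the Foxp1 arrays, against 8.33, 8.21 and 8.47 on the control arrays. All Foxp1 arrays were higher, and they lay closer together than the controls. The difference was 0.30 ± 0.10 (SE, n = 3 per group, limma adjusted p = 0.167), a 1.23-fold ratio with a 95% interval of 0.07 to 0.53. With array weights, which give noisier arrays less influence, it passed (0.37, adjusted p = 0.0340), under a setting in which 1034 probes passed in all.

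Lamb2, the beta chain that stands in for Lamb1 at synapses and in kidney and muscle basement membranes, had log2 levels of 10.07, 9.94 and 9.71 on the Foxp1 arrays, against 10.20, 9.97 and 9.63 on the control arrays. The groups overlapped, and the replicate 3 array was the lowest of each group. Its difference was -0.03 ± 0.16 (adjusted p = 0.954), and the difference between the beta chains was not tested.

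Lamc1, the gamma chain shared by most laminins, had log2 levels of 11.38, 11.24 and 11.09 on the Foxp1 arrays, against 11.50, 11.28 and 11.14 on the control arrays. Each Foxp1 array lay below the control array of its own number, by 0.11, 0.04 and 0.05, which is less than the spread between arrays of a group. The difference was -0.07 ± 0.13 (adjusted p = 0.823).

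Lama2, the alpha chain of muscle and Schwann cell laminin, was dim, with log2 levels of 7.12, 7.29 and 6.56 on the Foxp1 arrays, against 6.70, 6.84 and 6.71 on the control arrays. Foxp1 replicates 1 and 2 lay above every control and replicate 3 below them. The difference was 0.24 ± 0.18 (adjusted p = 0.531), 0.46 without Foxp1 replicate 3 and 0.09 without Foxp1 replicate 2. The probes for Lama1, the alpha chain of early embryonic basement membranes, and Lama4, that of endothelial ones, were detected on 0 arrays, as were those for Lamb3 and Lamc3. Lamb3 is a beta chain known from epithelia. Other laminin alpha genes were not analysed here.

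Of the laminin-binding integrin subunits, Itga7 was higher on every Foxp1 array. Itga7, best known as the laminin receptor of muscle, had log2 levels of 9.34, 9.05 and 9.00 on the Foxp1 arrays, against 8.94, 8.90 and 8.82 on the control arrays. The gap between the groups was small beside the spread of the Foxp1 arrays. The difference was 0.24 ± 0.11 (adjusted p = 0.314, interval -0.02 to 0.51), and 0.14 without Foxp1 replicate 1.

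Itga3, which binds laminins that carry Lama3 or Lama5, had log2 levels of 11.58, 11.78 and 11.73 on the Foxp1 arrays, against 11.69, 11.78 and 11.72 on the control arrays. The groups overlapped closely, and the difference was -0.04 ± 0.10 (adjusted p = 0.885, interval -0.26 to 0.19). Itga6, the laminin receptor of neural progenitors and of epithelia, gave 10.39, 10.54 and 9.99 on the Foxp1 arrays, against 10.36, 10.26 and 10.11 on the control arrays. Its lowest value and its highest both came from Foxp1 arrays, and its difference was 0.06 ± 0.15 (adjusted p = 0.869).

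Itgb4, which pairs with Itga6 in hemidesmosomes, had the largest difference of the members and the largest error. Its log2 levels were 6.96, 7.03 and 7.15 on the Foxp1 arrays, against 7.53, 7.23 and 8.06 on the control arrays. Every Foxp1 array was lower, but control replicate 3 lay above the other controls. The difference was -0.56 ± 0.20 (adjusted p = 0.185), a 1.48-fold lower level, and -0.34 without control replicate 3 (adjusted p = 0.160). The other Itgb4 probe was detected on 0 Foxp1 arrays and 1 control array, with intensities of 24.9, 23.0 and 39.0 on the Foxp1 arrays, against 47.0, 36.0 and 76.8 on the control arrays.

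Among the receptors for RGD ligands, Itga5 lay higher and Itgb5 lower on every Foxp1 array, and neither passed. Itgb5, the partner of Itgav in the vitronectin receptor, had log2 levels of 11.65, 11.45 and 11.56 on the Foxp1 arrays, against 11.86, 11.96 and 11.86 on the control arrays. All 3 Foxp1 arrays were lower, and the same-numbered arrays differed by -0.22, -0.51 and -0.30. The difference of -0.34 ± 0.10 had the smallest p of the members (unadjusted p = 0.00711, adjusted p = 0.115), a 1.27-fold lower level with an interval of -0.56 to -0.12. It passed with array weights (-0.37, adjusted p = 0.0414).

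Itga5, the alpha subunit of the main fibronectin receptor, had log2 levels of 11.004, 10.86 and 10.77 on the Foxp1 arrays, against 10.72, 10.63 and 10.50 on the control arrays. The Foxp1 arrays were higher, and the differences between same-numbered arrays were alike, at 0.28, 0.22 and 0.27. The fitted difference was 0.26 ± 0.11 (adjusted p = 0.253, interval 0.01 to 0.51). Its other probe, with 9.90, 9.71 and 9.51 on the Foxp1 arrays, against 9.57, 9.44 and 9.24 on the control arrays, differed by 0.29 ± 0.13 (adjusted p = 0.313). The probes thus had the same sign and nearly the same size, although the groups of the other probe overlapped.

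Itgav, the alpha subunit shared by several RGD receptors, had log2 levels of 9.86, 9.98 and 9.74 on the Foxp1 arrays, against 9.83, 9.85 and 9.94 on the control arrays. The difference was -0.01 ± 0.10 (adjusted p = 0.975, interval -0.24 to 0.22). The Itgb5 estimate of -0.34 lies outside this interval, but the Itgb5 interval of -0.56 to -0.12 overlaps it. Whether Itgav and Itgb5 differ from each other was not tested. Itgb3, the beta subunit of the platelet fibrinogen receptor and of another vitronectin receptor, was near the detection limit: it was detected on 1 Foxp1 array and 2 control arrays. Its levels of 6.57, 6.18 and 6.18 on the Foxp1 arrays overlapped with 6.23, 6.48 and 6.64 on the control arrays. Its difference was -0.14 ± 0.15 (adjusted p = 0.668). Dropping 1 of the arrays that did not detect Itgb3 gave differences of -0.25 to -0.07. Dropping 1 of those that did left fewer than 3 arrays with detection, so Itgb3 was not tested there and the full range is not known. Itga2b, the platelet partner of Itgb3, gave levels of 7.28, 6.70 and 7.04 on the Foxp1 arrays, against 6.88, 7.09 and 7.14 on the control arrays, and a difference of -0.03 ± 0.16 (adjusted p = 0.954). Its other probe was detected on 0 arrays.

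Itgb1 is the common beta subunit, the partner of most alpha subunits named here. Its brighter probe had log2 levels of 9.60, 9.61 and 9.59 on the Foxp1 arrays, against 9.47, 9.69 and 9.73 on the control arrays. The Foxp1 arrays lay within the range of the controls, and the difference was -0.03 ± 0.10 (adjusted p = 0.904, interval -0.26 to 0.20). The dimmer probe differed by 0.15 ± 0.17 (adjusted p = 0.681), with the opposite sign, and also overlapped between the groups.

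**Figure D2:**
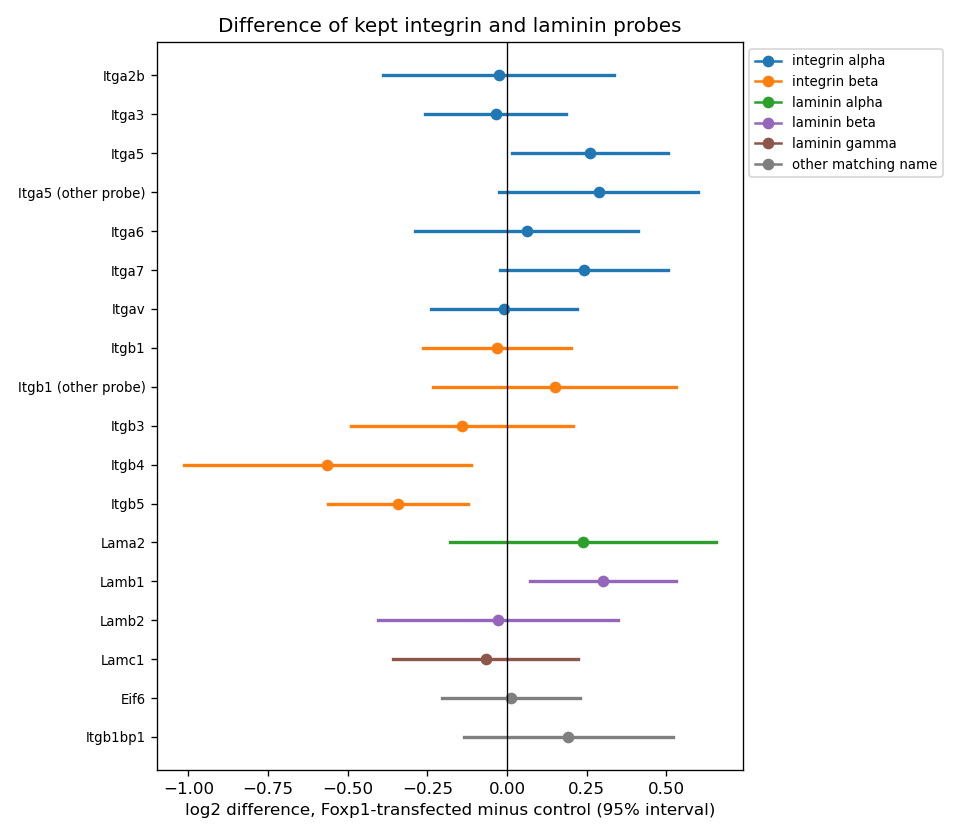
Log2 difference, Foxp1-transfected minus control (x axis), of 18 kept probes with its 95% interval (line), coloured by kind of subunit. The intervals of Itgb4 and Itgb5 lie below 0 and those of Lamb1 and the brighter Itga5 probe above it; the other 14 shown include 0, and 0 of the 18 passed after adjustment.

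The integrins act as pairs, so the subunits were set side by side for 24 known pairs. Both subunits were kept in 9 pairs: Itgb1 with Itga3, Itga5, Itga6, Itga7 or Itgav, Itgb4 with Itga6, Itgb3 with Itgav or Itga2b, and Itgb5 with Itgav. In 7 pairs the beta subunit, Itgb1, was kept without its alpha partner, which was not detected (Itga1, Itga2, Itga4, Itga9 and Itga11) or not analysed here (Itga8 and Itga10). In 2 pairs Itgav was kept and its partner, Itgb6 or Itgb8, both receptors that release active TGF-beta, was detected on 0 arrays. None of the leukocyte pairs with Itgb2 or Itgb7 had a kept subunit. Of the subunits whose groups did not overlap, Itgb5 was at -0.34 beside -0.01 for Itgav, and Itgb4 at -0.56 beside 0.06 for Itga6. Likewise Itga5 was at 0.26 and Itga7 at 0.24 beside -0.03 for Itgb1. These are single differences that did not pass, and whether the subunits of a pair differ from each other was not tested.

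The collagen-binding subunits Itga1, Itga2 and Itga11, the fibronectin and Vcam1 receptor subunit Itga4, the tenascin receptor subunit Itga9, and the leukocyte subunits Itgam, Itgax, Itgb2, Itgb2l and Itgb7 were detected on 0 arrays. Itgam, Itgax and Itgb2 are marks of myeloid cells, as are Cd14 and Cd68, which were detected. Itgad was detected by 1 of its 2 probes on control replicate 3 alone, with an intensity of 139.7 there. Itgae, which binds E-cadherin in T cells of epithelia, was seen by 1 of its 6 probes on 2 Foxp1 arrays and 0 control arrays. That probe had intensities of 59.9, 57.9 and 66.1 on the Foxp1 arrays, against 33.0, 29.4 and 33.7 on the control arrays. These intensities did not overlap, but after normalization the groups did, and the probe was not tested because fewer than 3 arrays detected it. A second Itgae probe was detected on 1 Foxp1 array, and the other 4 on none.

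The genes that match by name alone did not pass. Itgb1bp1, an adaptor that competes with talin for the Itgb1 tail, had log2 levels of 10.91, 10.96 and 10.56 on the Foxp1 arrays, against 10.63, 10.79 and 10.44 on the control arrays, a difference of 0.19 ± 0.14 (adjusted p = 0.518), with a range of 0.10 to 0.32 when 1 array was left out. Eif6 had the smallest SE of the kept members, with levels of 13.55, 13.46 and 13.57 on the Foxp1 arrays, against 13.53, 13.42 and 13.59 on the control arrays (difference 0.01 ± 0.09, adjusted p = 0.964). Itgb1bp2, a chaperone of muscle, was detected on 0 arrays.

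The ligands and partners of the integrins were counted by gene, each by its brightest kept probe, beside 8789 kept genes of which 2.73% passed (1.58% higher, 1.15% lower) and 50.5% had a negative difference. Of the 15 kept subunit genes, 6 had a positive and 9 a negative difference, with a median of -0.03. The 10 kept collagen chains that integrins bind were all at negative differences, with a median of -0.32, and 1 passed. It was Col6a1, a chain of the microfibrillar collagen VI, with log2 levels of 11.57 ± 0.06 in Foxp1 cells and 12.25 ± 0.19 in control cells (SD, n = 3 each), a fall of 0.68 (-0.68 ± 0.12, limma adjusted p = 0.0277). A second Col6a1 probe was also lower and did not pass. Its call was lost without any 1 of the Foxp1 arrays (adjusted p = 0.0828 to 0.146) or control replicate 1 (0.0953), and with no detection filter (0.0525). Of the 10 collagen genes, 5 had Foxp1 arrays wholly below the controls, beside 14.1% of all genes. The mesenchymal markers lay on the same side: 5 of 7 were kept, their differences were negative in 5 of 5 (median -0.31), and Pdgfra fell (-0.61 ± 0.12, adjusted p = 0.0471). Negative differences were also found for 2 of 2 kept leukocyte and 3 of 4 kept neural progenitor markers. They were found for 1 of 2 astrocyte, 1 of 2 striatal and 0 of 1 epithelial markers kept. The negative striatal marker, Ppp1r1b, was kept through the control arrays alone. No endothelial or oligodendrocyte marker was kept. The Pdgfra call was lost with the replicate number as a block (0.0524), with no detection filter (0.0859), with no background correction (0.0634) or median scaling (0.0554), and without any 1 array except control replicate 3 (0.0793 to 0.172). Before normalization, all mesenchymal marker probes summed to 3886 to 5670.0 on the Foxp1 arrays, against 4109 to 8872 on the control arrays. These ranges include the brighter replicate 3 arrays. Col1a1 and Col3a1 stand on both lists, Col1a2 and Thy1 were detected on 0 arrays, and the part of the mesenchymal markers in the result was not tested.

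Of 19 kept ligands other than laminins and collagens, 3 had a positive and 16 a negative difference, with a median of -0.21, and 0 passed. The negative ones include Fgg, detected on 0 Foxp1 and 3 control arrays. It was kept through the control arrays alone, so its sign is not independent of the filter. The smallest p values were those of Tgfb3 (-0.60 ± 0.13, adjusted p = 0.0615) and Tgfb1 (-0.34 ± 0.10, adjusted p = 0.124), growth factors whose latent form is bound by Itgav receptors. Tnc, the matrix protein tenascin-C, was at -0.03 ± 0.12 and Vcam1, an adhesion protein bound by Itga4, at -0.12 ± 0.09. Tnc has 2 more kept probes, of which only 1 had the same sign, and neither passed. Spp1, the RGD protein osteopontin, was at -0.28 ± 0.11 (adjusted p = 0.248). Vtn, which encodes vitronectin, the ligand of Itgb5 with Itgav, was detected on 0 arrays, and Fn1 was not analysed here.

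Of 12 kept basement membrane partners and other laminin receptors, 0 passed, 4 were positive and 8 negative, with a median of -0.14. Col4a1 and Col4a2, each negative, were also counted among the collagen chains, and Nid1 among the other ligands. Sgcb, a sarcoglycan, was at -0.24 ± 0.10 (adjusted p = 0.254) and Dag1, the laminin receptor dystroglycan, at -0.31 ± 0.15 (adjusted p = 0.334), and at -0.18 without Foxp1 replicate 3 or -0.19 without control replicate 1. Nid1, the nidogen that ties Lamc1 to collagen IV, was at 0.01 ± 0.17, and Hspg2, which encodes perlecan, at 0.14 ± 0.12 (adjusted p = 0.584).

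Inside the cell, 27 kept genes of the integrin adhesion complex held 1 that rose and 1 that fell. Lims2, an adaptor that binds integrin-linked kinase, rose: its log2 level was 7.52 ± 0.18 in Foxp1 cells and 6.57 ± 0.24 in control cells (SD, n = 3 each), a difference of 0.95 ± 0.15 or 1.94-fold (limma adjusted p = 0.0204). The control level was close to the lowest level of any detected probe on those arrays, 6.18 to 6.37. The Lims2 difference was 0.75 with a background offset of 50 and 1.09 with no background correction. Lims2 has 2 more kept probes, both higher, of which 1 passed. Tgfb1i1, the paxillin-like adaptor Hic-5, fell: its level was 10.26 ± 0.07 in Foxp1 cells and 10.81 ± 0.12 in control cells, a difference of -0.54 ± 0.10 (adjusted p = 0.0343), and its second kept probe passed as well. The Lims2 call was lost without any 1 of the Foxp1 arrays (0.0692 to 0.0983) or control replicate 2 (0.0919), and that of Tgfb1i1 without any of them or control replicate 1 or 2 (0.0760 to 0.166) and with median scaling (0.0649). With no detection filter their adjusted p was 0.0525 and 0.0511. The list median was -0.04, with 9 positive and 18 negative.

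Of 11 kept tetraspanins and other membrane partners, 0 passed, and 3 were positive and 8 negative, with a median of -0.18. Emp2, a tetraspan protein, was at -0.33 ± 0.10 (adjusted p = 0.132) and Cd82, a tetraspanin that restrains integrin adhesion, at -0.44 ± 0.14 (adjusted p = 0.153). Cd151, the tetraspanin bound most tightly to Itga3 and Itga6, was at -0.20 ± 0.10 (adjusted p = 0.330).

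**Figure D3:**
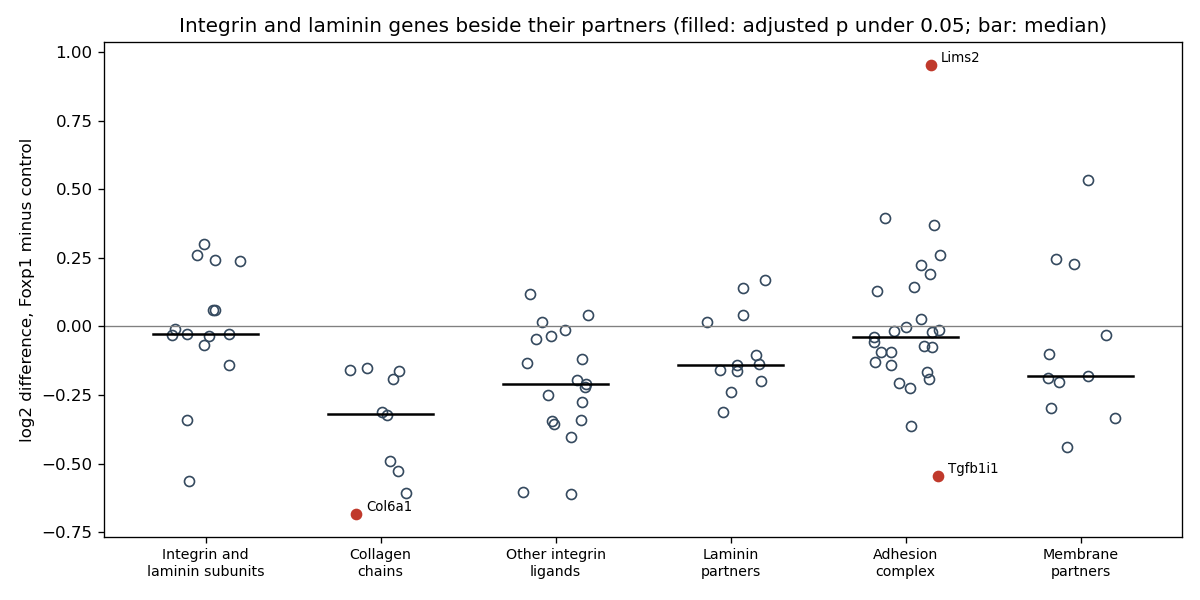
Log2 difference, Foxp1 minus control (y axis), of each kept gene among the 15 integrin and laminin subunit genes and 5 lists of ligands and partners, with the median as a bar and filled points for adjusted p under 0.05. The subunit genes spread around 0, the 10 collagen chains all lie below it, and the 3 genes that passed are Col6a1, Tgfb1i1 and Lims2.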

How the data were processed

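The deposited table gives, per the file headers, 1 intensity and 1 detection p-value per probe on each array. The submitters' processing notes name GenomeStudio. Between 29.5% and 31.6% of intensities per array were below 0, so a background had been subtracted before they were deposited. The authors also deposited processed values, read as log2 because they follow each array's own values (r of deviations 0.996 to 0.997, at most 0.451 for another array). All its columns have a median of 6.32, and its offset and exact method are unknown.

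Intensities were corrected with limma 3.58.1 (R 4.3.3; neqc's method, background inferred from detection p-values, offset 16), then quantile-normalized and log2-transformed. Kept probes, 12136 or 47.2%, had a detection p under 0.05 on at least 3 arrays. The groups were compared by limma's moderated 2-sided test (lmFit, eBayes), adjusted by Benjamini-Hochberg over all kept probes, and the method was tested on simulated data. A gene is represented by its brightest kept probe. Array symbols were updated through RefSeq synonyms: 17548 probes had a current symbol and 7082 a synonym of 1 gene. The 27 probes whose symbol a spreadsheet had turned into a date or number were left out of gene counts.

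Members, lists and tests were chosen with earlier results of these data known. Values per array are given for up to 5 genes of each kind with the smallest unadjusted p, and for Itgav, added after its values were seen, as were Spp1, Tnc, Vcam1, Nid1, Hspg2, Cd151 and Pdgfra. From each partner list up to 4 genes past the threshold are named, or the 2 with the smallest p. Replicate numbers are shared by the groups, and deviations from the group means correlated at 0.257, 0.115 and 0.401 between same-numbered arrays. Foxp1 replicate 2 correlated at 0.151 with control replicate 1, and Foxp1 replicate 1 at 0.121 with control replicate 2. Other unlike-numbered arrays correlated negatively. The values thus do not single out the pairing of replicate 2. The main fit did not pair the arrays, and the replicate number was a block only in an alternative fit. The number of arrays limits the precision. Probe positions were not used here. The values of 1 member gene are not reported here, while counts over the members include it.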

Additional observations from a re-analysis of the deposited data

How the results depend on the processing

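The number of arrays limits the precision, and the dim probes of Itgb3, Itgb4, Itga2b and Lama2 lie near background, as does Lims2 on the control arrays. No integrin or laminin probe passed under 14 of 15 alternatives that were counted; with array weights 2 passed, Itgb5 and Lamb1, where 1034 of all probes passed. With the replicate block 0 of 20 member probes passed and 445 probes in all, and of 32 named genes the block changed the call of Pdgfra alone, which it ended (adjusted p = 0.0524). Over all probes the count of 317 was 207 with no detection filter and ranged from 35 to 373 when 1 array was left out. It was lowest without Foxp1 replicate 2 (35) or 1 (37), then without control replicate 2 (94), Foxp1 replicate 3 (117) or control replicate 1 (118). Member probes whose groups did not overlap were 9 of 54 (16.7%, beside 17.3% of all probes) with no detection filter and 12 of 19 (63.2%, beside 56.5%) without replicate 3 of both groups, which leaves 2 arrays a group. They were 5 to 9 when 1 array was left out, 26.3% to 45.0% of members beside 30.5% to 43.2% of all probes, with 9 of 20 (45.0%, beside 37.4%) without Foxp1 replicate 3. Of 507 values of 32 named genes, 444 kept direction and side of the threshold and 28 changed sign, all in genes that did not pass.

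Signs turned as follows. With array weights Itgav was at 0.0325 and Tnc at 0.0071. Without replicate 3 of both groups Itga2b was at 0.0105, Itgav at 0.0807, Itgb1 at 0.0226 and Tnc at 0.0616. Averaging all kept probes of a gene put Itgb1 at 0.0592. When 1 array was left out, differences ranged from -0.0338 to 0.0523 for Eif6, -0.1642 to 0.13 for Itga2b, -0.0791 to 0.0252 for Itga3, -0.0543 to 0.2182 for Itga6, -0.0705 to 0.0499 for Itgav, -0.1087 to 0.0183 for Itgb1, -0.181 to 0.1064 for Lamb2, -0.1506 to 0.0275 for Lamc1, -0.0948 to 0.1927 for Nid1 and -0.1318 to 0.0861 for Tnc. Hspg2, which kept its sign, ranged from 0.0706 to 0.2364. The cause was not tested. Tgfb3 passed with detection on all 6 arrays (adjusted p = 0.0477), and Tgfb3, Tgfb1 and Emp2 passed with array weights (0.0389, 0.0468 and 0.0454). Without replicate 3 of both groups Col6a1 (0.0781), Lims2 (0.0573) and Pdgfra (0.0712) did not pass. A slide block was not run because the files name no slides.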
